A study of Mus musculus with 67 samples.

Results

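The comparison set p0-1 neural progenitors against p3 neural progenitors at day 4 of differentiation, and rested on 11 of the 67 samples of the series. Samples were taken from the submitters' labels for day, cell type and dose of SAG, a small molecule that activates Smoothened and so stands in for Sonic hedgehog (Shh). The p0-1 group held 6 samples, 3 without SAG (0 nM) and 3 at 10 nM, and the p3 group held 5 samples, 3 at 100 nM and 2 at 500 nM. All came from 1 mouse embryonic stem (ES) cell line, HM1, differentiated to spinal cord progenitors, fixed, transposed with Tn5, stained for intracellular transcription factors and sorted. In the study's scheme p0-1 cells were recognised by PAX6 without NKX6.1, and p3 cells by NKX2.2 without OLIG2. No SAG dose was shared by the groups, so cell type and dose cannot be told apart within this comparison, and values of pMN cells (the OLIG2-positive domain between them), sorted from the same doses as p3, are given beside the main results. The labels number the replicates without saying what a number shares, so the tests measure the spread between these samples.

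In the developing spinal cord, Shh from the notochord and floor plate forms a gradient that divides the ventral progenitors into domains. The most ventral neuronal progenitors, p3, express Nkx2-2 and Nkx2-9 and lie next to the floor plate, which expresses Foxa2 and Shh itself. The more dorsal p0 and p1 progenitors are marked by Dbx1, Dbx2 and Pax6 and are exposed to little Shh. Signalling acts through the GLI transcription factors, of which Gli1 and the receptor gene Ptch1 are direct targets and Gli3 is mainly a repressor. ATAC-seq counts transposition events, so a high read count in an element (a consensus peak of the series) means open chromatin there, at a promoter or at a distal element that may regulate a gene some way off.

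Values below are normalized counts, reads in an element divided by the sample's size factor, recovered from the deposited log2 values. Differences are p3 minus p0-1 in those log2 values, which were variance-stabilized (VST) and therefore understate the ratio of low counts. An element was called when its adjusted p was under 0.01 and its log2 difference was above 2 or below -2. Elements are named by the gene with the nearest transcription start site (TSS), with the signed distance to it, which does not show that the gene is their target.

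Reads in elements numbered 15763186 to 21532874 in the p0-1 samples, 9298160 to 13974633 in p3 at 100 nM and 16667003 and 23973955 in p3 at 500 nM. Between samples of 1 cell type the correlation of VST values across tested elements was 0.840 to 0.985 in p0-1 and 0.944 to 0.992 in p3, against 0.788 to 0.945 between the types. One library stood apart within p0-1, replicate 3 at 10 nM, with a mean correlation of 0.898 with the other p0-1 samples, where the others had 0.928 to 0.959, and with 40.2% of its reads in promoter elements, the highest share of the 11 samples. Replicate 3 of p3 at 100 nM and replicate 3 of p3 at 500 nM were the most alike pair, yet a chi-square of 1.95 per element, where sampling alone gives about 1, set them apart, and they were kept as separate samples. The next most alike pairs also shared a number across doses. They were replicates 1 of p0-1 at 0 and 10 nM (r = 0.985) and replicates 2 at those doses (r = 0.980).

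Of 29420 elements tested, 319 (1.08%) were called, 194 (0.659%) higher in p3 and 125 (0.425%) lower in p3. The median size of the difference was 2.49 among the higher elements and -2.29 among the lower ones, against -0.02 over all tested elements. Each sample is a sorted pool, so fewer cells with an open element and less opening per cell cannot be told apart. The samples of the groups did not overlap at 187 of the 194 higher and 123 of the 125 lower elements. Of all tested elements 11.4% had groups without overlap, 5.59% with p3 above and 5.79% with p3 below. The called elements were chosen on these same samples, which favours groups without overlap, so their counts are a description. At a log2 difference above 1 or below -1 the same test passed 1764 elements (6.00%), 902 higher (3.07%) and 862 lower (2.93%), and 2872 (9.76%) had an adjusted p under 0.01 at any size. The division between the directions depended on the method, since limma voom on the recovered reads called 348 elements, 287 higher and 61 lower. Without p0-1 replicate 2 at 10 nM the calls were 194 higher and 191 lower, and without replicate 3 at 10 nM they were 174 higher and 143 lower.

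**Figure D1:**
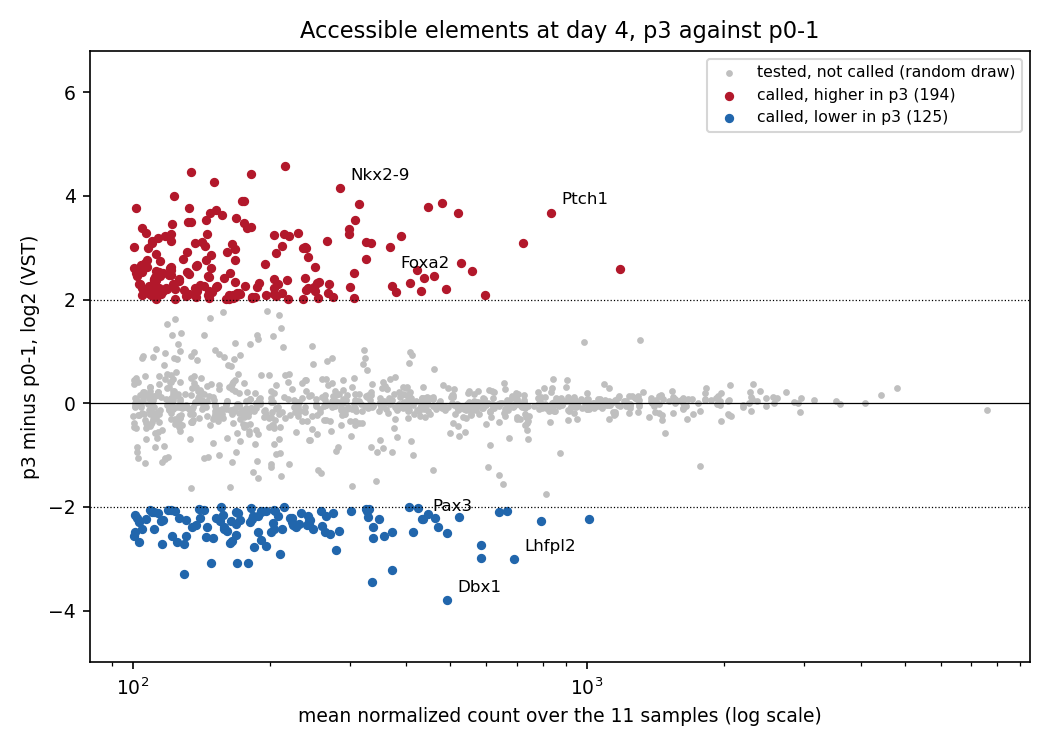
Log2 difference between p3 and p0-1 at day 4 (VST scale, vertical axis) against the mean normalized count over the 11 samples (log horizontal axis). Red and blue points are the 194 elements called higher and the 125 called lower in p3, grey points are a random draw of the other tested elements, and dotted lines mark differences of 2 and -2, with named points among the genes described in the text.

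The same samples were often at the edge of their group. At the 125 lower elements, p0-1 replicate 2 at 10 nM was the lowest p0-1 sample at 114 (91.2%), with a median VST value of 7.25 where the other 5 p0-1 samples had 8.06 to 8.85. At the 194 higher elements, p3 replicates 1 and 2 at 100 nM were the lowest p3 samples at 108 and 85 elements, with median VST values of 7.57 and 7.72 where the other 3 p3 samples had 8.47 to 8.66. The highest p0-1 sample had a median of 5.91 at the higher elements and the highest p3 sample one of 6.13 at the lower elements. At the higher elements p0-1 replicate 2 at 10 nM had 5.72, within the 5.33 to 5.91 of the p0-1 samples. The part of dose, depth or the purity of the sorts in these levels was not tested.

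The largest rises were at distal elements that were almost closed in p0-1. The first lay in intron 11 of Kcnq1, a potassium channel gene, 2.6 kb from the start of 4933417O13Rik (chr7:143332764-143333781). It held 4.39, 8.23 and 6.81 at 0 nM and 6.53, 7.83 and 15.3 at 10 nM in p0-1, and 327, 219.9 and 561 at 100 nM and 514 and 702 at 500 nM in p3 (log2 difference 4.58, SE 0.27, adjusted p = 3.56e-07). Every p3 sample was above 200 and no p0-1 sample reached 20. An intergenic element 199977 bp from Gm4668 (chr9:116388783-116389531) held 2.63, 1.03 and 5.11 at 0 nM and 3.26, 2.94 and 2.36 at 10 nM in p0-1 and 149, 127 and 381 at 100 nM and 330.0 and 474 at 500 nM in p3 (log2 difference 4.47, SE 0.31, adjusted p = 9.46e-07). Another element, 105787 bp from Rplp1, a ribosomal protein gene (chr9:61808180-61809266), held 5.27, 2.06 and 6.81 at 0 nM and 7.62, 12.7 and 10.6 at 10 nM in p0-1 and 209.9, 254 and 509 at 100 nM and 407 and 573 at 500 nM in p3 (log2 difference 4.43, SE 0.28, adjusted p = 5.03e-07). At all 3 the 2 lowest p3 samples were replicates 1 and 2 at 100 nM, and both were far above the highest p0-1 sample.

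The sequences of these 3 elements and of the 2 largest falls, near Dbx1 and Foxe3, are shown because they are among the clearest cases of each direction. Each is the 300 bases around the element's midpoint on the plus strand of GRCm38, the build named mm10 in the files, with exact matches to the forkhead (FOX) core TGTTTAC or its reverse complement GTAAACA in capitals. The first of the rises holds 1 such match and the other 4 windows hold none.
4933417O13Rik, chr7:143333123-143333422: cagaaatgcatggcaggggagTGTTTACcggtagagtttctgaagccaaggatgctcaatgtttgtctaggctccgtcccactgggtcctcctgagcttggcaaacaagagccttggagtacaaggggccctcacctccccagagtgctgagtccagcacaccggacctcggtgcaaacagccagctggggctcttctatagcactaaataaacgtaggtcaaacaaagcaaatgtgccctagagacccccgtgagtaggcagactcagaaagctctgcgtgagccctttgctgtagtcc
Gm4668, chr9:116389008-116389307: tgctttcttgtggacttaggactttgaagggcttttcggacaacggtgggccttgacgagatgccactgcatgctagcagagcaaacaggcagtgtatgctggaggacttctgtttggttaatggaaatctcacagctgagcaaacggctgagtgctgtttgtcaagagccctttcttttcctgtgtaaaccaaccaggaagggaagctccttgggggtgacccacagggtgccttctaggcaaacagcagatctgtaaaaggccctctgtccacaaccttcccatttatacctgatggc
Rplp1, chr9:61808574-61808873: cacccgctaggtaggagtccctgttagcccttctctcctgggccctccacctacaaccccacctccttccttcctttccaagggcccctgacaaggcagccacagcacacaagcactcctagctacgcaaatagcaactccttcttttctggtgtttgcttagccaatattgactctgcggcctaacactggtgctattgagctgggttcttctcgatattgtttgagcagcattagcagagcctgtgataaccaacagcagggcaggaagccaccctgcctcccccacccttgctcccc
Dbx1, chr7:49696466-49696765: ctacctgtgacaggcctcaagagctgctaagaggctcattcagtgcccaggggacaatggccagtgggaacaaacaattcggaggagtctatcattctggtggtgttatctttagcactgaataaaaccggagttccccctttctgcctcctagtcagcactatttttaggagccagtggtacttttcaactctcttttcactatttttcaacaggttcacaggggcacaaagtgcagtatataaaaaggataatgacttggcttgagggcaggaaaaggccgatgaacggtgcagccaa
Foxe3, chr4:114929196-114929495: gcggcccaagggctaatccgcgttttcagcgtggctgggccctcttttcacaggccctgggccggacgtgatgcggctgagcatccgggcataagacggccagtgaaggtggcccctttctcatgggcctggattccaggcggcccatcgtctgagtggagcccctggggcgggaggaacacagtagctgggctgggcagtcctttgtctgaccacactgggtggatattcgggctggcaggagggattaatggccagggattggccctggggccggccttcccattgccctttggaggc

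The other rises among the 8 largest lay near Plekhb2, Nkx2-9, Frmd4b, Osr2 and Cdh26. The Plekhb2 element (chr1:34994353-34995080) went from 6.54 ± 3.77 (SD, n = 6) in p0-1 to 324 ± 124 (SD, n = 5) in p3, a log2 difference of 4.26 (adjusted p = 5.03e-07). The element upstream of Frmd4b (chr6:97754419-97755130) went from 6.29 ± 4.24 to 264 ± 113, a difference of 4.0 (adjusted p = 1.49e-06). Upstream of Osr2, a zinc finger factor gene, the means were 12.4 ± 3.34 and 367 ± 147 (chr15:35276177-35276945), a difference of 3.90 (adjusted p = 9.46e-07). At Cdh26, a cadherin gene (chr2:178662240-178662913), they were 12.3 ± 6.67 and 371 ± 195, a difference of 3.89 (adjusted p = 1.29e-05). The p3 samples at Cdh26 ran from 98.9 in replicate 1 at 100 nM to 569.7 in replicate 3 at 500 nM.

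These rises differed in what pMN cells from the same SAG doses showed. The Kcnq1 intron element had 34.3 ± 22.0 (SD, n = 6) normalized counts in pMN, the Gm4668 element 31.5 ± 24.0 (SD, n = 6) and the Frmd4b element 30.3 ± 17.5 (SD, n = 6). All 3 were lower than in p3, with log2 differences (p3 minus pMN) of 3.37, 2.82 and 2.72 and limma adjusted p of 9.12e-07, 3.53e-05 and 1.14e-05. The differences were 2.28 at Rplp1, 1.94 at Plekhb2, 1.64 at Osr2 and 1.64 at Cdh26, where the adjusted p of 0.011 missed the threshold. The Nkx2-9 element in the same list had 688 ± 239 (SD, n = 6) in pMN, a difference of -0.15 from p3 (adjusted p = 0.634). The pMN comparison shares its p3 samples with the main one and called 0.840% of its 29636 tested elements.

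The largest fall was near Dbx1, and the next 2 near Foxe3 and in Ankrd44. An intergenic element -59780 bp from Dbx1, the homeodomain gene that marks p0 (chr7:49696204-49697027), held 1387, 718 and 1071 at 0 nM and 1004, 393 and 592 at 10 nM in p0-1, and 50.5, 49.3 and 60.5 at 100 nM and 32.4 and 39.7 at 500 nM in p3 (log2 difference -3.80, SE 0.27, adjusted p = 9.46e-07). The lowest p0-1 sample, replicate 2 at 10 nM, was far above the highest p3 sample, replicate 3 at 100 nM. The next was near Foxe3, a forkhead gene known from the lens (chr4:114928999-114929692), with 699, 431 and 748 at 0 nM and 522, 201 and 893 at 10 nM in p0-1 and 28.3, 32.2 and 64.4 at 100 nM and 22.3 and 53.2 at 500 nM in p3 (log2 difference -3.44, SE 0.33, adjusted p = 8.25e-06). Next in size was one in intron 2 of Ankrd44 (chr1:54823483-54824629), with 321, 138 and 426 at 0 nM and 183, 41.1 and 269 at 10 nM in p0-1 and 10.1, 11.4 and 7.89 at 100 nM and 6.07 and 13.5 at 500 nM in p3 (log2 difference -3.29, SE 0.42, adjusted p = 8.82e-05). Replicate 2 at 10 nM was the lowest p0-1 sample at all 3, and at Ankrd44 its 41.1 stood against 13.5 in the highest p3 sample.

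The remaining falls among the 8 largest were near Hs3st3b1, a heparan sulfate modifying enzyme gene, and near Ttc27, Wwox, Akap14 and Lhfpl2. At Hs3st3b1 (chr11:63784982-63785921) the means were 633 ± 193 (SD, n = 6) in p0-1 and 57.3 ± 21.7 (SD, n = 5) in p3, a log2 difference of -3.21 (adjusted p = 1.94e-06). At Ttc27 (chr17:74866706-74867615) they were 293 ± 155 and 20.1 ± 4.39, a difference of -3.08 (adjusted p = 3.18e-05). In intron 5 of Wwox (chr8:114593218-114594071) they were 309 ± 121 and 23.9 ± 4.37, a difference of -3.08 (adjusted p = 3.52e-06). At Akap14 on chromosome X (chrX:37175979-37177766) they were 256 ± 88.1 and 19.1 ± 6.63, a difference of -3.08 (adjusted p = 4.04e-06). In intron 1 of Lhfpl2 (chr13:94069164-94070247) they were 1152 ± 455 and 133 ± 67.2, a difference of -3.00 (adjusted p = 3.44e-05). The falls near Dbx1, Foxe3, Ankrd44, Ttc27 and Wwox lost their call in limma voom, as did those named below at Gli3, Dbx2, Pax3 and Sema3a, and all 9 remained lower in p3.

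Among 15 genes of p3 progenitors and floor plate, 14 had a tested element, and 6 of their 63 elements were called, 5 higher in p3 and 1 lower, where 1.08% of all tested elements were called. Past a log2 difference of 1 there were 8 higher and 3 lower, 17.5% of the list against 6.00% of all elements, and the median difference of the list was 0.05. The rises were at Nkx2-9, Foxa2, Ferd3l and Spon1, and the falls included a far Foxa2 element and one at Sim1. The elements of Shh, Lmx1b, Corin, Ntn1, Slit1, Foxj1 and Foxa1, most of them known from the floor plate, held none past that size. The summed normalized counts of the 63 elements were 21006 to 30836 in the p0-1 samples and 26440 to 32423 in the p3 samples, so the groups overlapped. Beyond the largest called element of each gene, the further elements of these and the following lists are named because they passed a difference of 1, and so after their values were seen.

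Nkx2-9, a homeodomain gene of the p3 domain, showed the strongest signal of the list. An element -8166 bp from its start (chr12:56621016-56621884) held 14.9, 14.4 and 14.5 at 0 nM and 39.2, 19.6 and 41.3 at 10 nM in p0-1, and 438, 453 and 759.9 at 100 nM and 619.5 and 731 at 500 nM in p3 (log2 difference 4.14, SE 0.24, adjusted p = 3.56e-07). A second, -20077 bp away, went from 38.6 ± 21.6 (SD, n = 6) to 438 ± 52.0 (SD, n = 5), a difference of 3.23 (adjusted p = 8.53e-07). The promoter element (chr12:56611650-56615607) was already open in p0-1, with 567, 556 and 581 at 0 nM and 669, 640.2 and 839 at 10 nM, and held 1789, 1621 and 2192 at 100 nM and 1985 and 2048 at 500 nM in p3. Its groups did not overlap, but its difference of 1.57 (adjusted p = 1.77e-06) was too small for a call. In pMN the promoter had 1772 ± 268 (SD, n = 6), a difference of 0.13 (p3 minus pMN, limma adjusted p = 0.401). NMPs, the neuromesodermal progenitors sampled at day 3, had 834 ± 121 (SD, n = 3) at that promoter and 5.75 ± 2.05 (SD, n = 3) at the upstream element.

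Foxa2, a forkhead factor of the floor plate and of early ventral progenitors, had 2 called elements higher in p3 and 1 lower. The element 9968 bp from its start (chr2:148036783-148037220) held 42.2, 44.2 and 74.0 at 0 nM and 90.3, 107 and 121 at 10 nM in p0-1, and 396, 675 and 861 at 100 nM and 780.5 and 855 at 500 nM in p3 (log2 difference 3.01, SE 0.27, adjusted p = 4.22e-06). Within p0-1 all 3 samples at 10 nM were above all 3 without SAG, and all remained under the lowest p3 sample. An element 25185 bp away went from 125 ± 20.4 to 668 ± 192, a difference of 2.27 (adjusted p = 2.71e-06), while one 65867 bp away fell from 270.5 ± 162 to 46.6 ± 18.5 (log2 difference -2.09, adjusted p = 0.00171). The promoter element (chr2:148044037-148046986) held 393, 648 and 759.9 at 0 nM and 499, 671 and 1209 at 10 nM in p0-1 and 1189, 1115 and 1411 at 100 nM and 1174 and 1601 at 500 nM in p3, with overlap between the groups through replicate 3 at 10 nM (log2 difference 0.96, SE 0.22, adjusted p = 0.00777). In pMN the element at 9968 bp had 825 ± 129.9 (SD, n = 6), a difference of -0.24 from p3 (adjusted p = 0.33).

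Nkx2-2, whose protein defined the p3 sort, had no element under its own name, because the annotation assigned its surroundings to the overlapping transcripts Nkx2-2os and 6430503K07Rik. These elements were therefore looked up by position after the values were seen. The broad one at the shared promoter (chr2:147183999-147190942) held 467, 648 and 745 at 0 nM and 660.4, 754 and 1111 at 10 nM in p0-1, and 2846, 2260 and 2927 at 100 nM and 2757 and 2740 at 500 nM in p3 (log2 difference 1.91, SE 0.17, adjusted p = 4.22e-06). All p3 samples were at least 2 times the highest p0-1 sample, though the size was just under the threshold for a call. An element in intron 2 of Nkx2-2 (chr2:147180414-147182945) went from 287 ± 77.6 (SD, n = 6) to 709 ± 119 (SD, n = 5), a difference of 1.29 (adjusted p = 0.000154). In pMN the promoter element had 1819 ± 337 (SD, n = 6), a difference of 0.58 (p3 minus pMN, limma adjusted p = 0.00122). The intron element had 637 ± 70.2 (SD, n = 6) in pMN, a difference of 0.14 (adjusted p = 0.345). NMPs had 1779.8 ± 76.5 (SD, n = 3) at the promoter element, above p0-1 and below p3.

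Ferd3l, a bHLH factor gene of the ventral midline, held the only promoter-TSS element among the 319. Its promoter (chr12:33926966-33929399) held 32.5, 37.0 and 44.3 at 0 nM and 38.1, 47.0 and 37.7 at 10 nM in p0-1 and 151, 149.8 and 205 at 100 nM and 234 and 260.1 at 500 nM in p3 (log2 difference 2.02, SE 0.17, adjusted p = 3.61e-06). The size lay just past the threshold, and leaving out p0-1 replicate 1 at 0 nM or either p3 sample at 500 nM took it below 2, to no less than 1.76 over all alternatives. In pMN the promoter had 60.2 ± 19.2 (SD, n = 6).

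Of 15 genes of the hedgehog pathway, 14 had a tested element, and 5 of their 52 elements were called, 4 higher and 1 lower in p3, where 1.08% of all tested elements were called. Past a log2 difference of 1 there were 9 higher and 6 lower, 28.8% of the list against 6.00% of all elements, with a list median of -0.02. The higher ones lay at Ptch1 and, in 1 case, Gli3, and the lower ones at Gli3 and at the co-receptor genes Boc, Cdon and Gas1. Cdon at -79525 bp had a difference of -1.40, Boc at -20965 bp one of -1.92, and the 2 Gas1 elements -1.58 and -1.29. Against pMN (p3 minus pMN) the differences were 0.30 at Cdon (limma adjusted p = 0.224) and -2.37 at Boc (adjusted p = 1.86e-07). At the 2 Gas1 elements, in the same order, they were -1.33 and -2.03 (adjusted p = 6.74e-06 and 1.16e-07). These co-receptors bind Shh beside PTCH1.

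All 4 called hedgehog rises were at Ptch1, the Shh receptor and a direct GLI target. They stretched from intron 2 to beyond the end of the gene (chr13:63496441-63550914), and no other run of 4 called elements with gaps under 100000 bp was found on any chromosome. The largest (chr13:63503435-63510354) held 87.8, 78.2 and 69.8 at 0 nM and 159, 149.8 and 220.4 at 10 nM in p0-1, and 1502, 1238 and 1818 at 100 nM and 1825 and 1989.6 at 500 nM in p3 (log2 difference 3.68, SE 0.25, adjusted p = 7.97e-07). Samples at 10 nM were all above those without SAG and all p3 samples were several times higher again. In pMN, from the same doses as p3, the element had 1342 ± 419.8 (SD, n = 6), a difference of 0.35 (p3 minus pMN, adjusted p = 0.173). The others, at 66664, 26651 and 15890 bp, had differences of 2.55, 2.56 and 2.61. The tested element nearest the annotated start (chr13:63571708-63573943, in intron 1) held 242, 300.3 and 391 at 0 nM and 431, 396 and 702 at 10 nM in p0-1 and 1116, 1041 and 1476 at 100 nM and 1136 and 1607 at 500 nM in p3 (log2 difference 1.66, SE 0.22, adjusted p = 0.000111). Of the 12 elements tested from 50000 bp before to 50000 bp after this run, 8 were higher in p3 past a difference of 1 and 2 were lower at any size. On the same chromosome 2 further runs of 3 called elements lay near 1700024I08Rik (chr13:63719030-63730614) and Hsd17b3 (chr13:63979688-64037155), with differences from 2.22 to 3.68.

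Elements near the GLI genes differed in direction, also within Gli3, and the Gli1 element missed the threshold on p. At Gli1, the target gene most used as a readout of Shh signalling, the element nearest the start (chr10:127338779-127342705) held 926, 1049 and 1213 at 0 nM and 2049.7, 1999 and 3535 at 10 nM in p0-1 and 3363, 2923 and 2989.6 at 100 nM and 2539 and 2851 at 500 nM in p3 (log2 difference 0.86, SE 0.27, adjusted p = 0.0486). Replicate 3 at 10 nM was the highest of all 11 samples there, and the other 5 p0-1 samples lay below every p3 sample. In pMN the Gli1 element had 3474 ± 226 (SD, n = 6), a difference of -0.25 (p3 minus pMN, adjusted p = 0.018). Without p0-1 replicate 3 at 10 nM the Gli1 difference was 1.08 (limma adjusted p = 0.00126), the Foxa2 promoter difference 1.13 (adjusted p = 0.000228) and the Nkx6-1 promoter difference 0.52 (adjusted p = 0.00115). The same fit gave -0.37 (adjusted p = 0.00661) at the Pax6 element at -848 bp and 0.62 (adjusted p = 0.0115) at the Olig2 element at 742 bp. That fit is 1 of 11 that each left out a single sample. Over all alternatives the difference ran from 0.34 to 1.34 at Gli1, from 0.72 to 1.23 at the Foxa2 promoter and from 0.26 to 0.54 at the Nkx6-1 promoter. It ran from -0.56 to -0.35 at that Pax6 element and from 0.27 to 0.63 at that Olig2 element. At Gli3 an element -355573 bp from the start (chr13:15107522-15108778) held 469.8, 269 and 471 at 0 nM and 375, 156 and 269.9 at 10 nM in p0-1 and 56.5, 49.3 and 44.7 at 100 nM and 41.5 and 50.2 at 500 nM in p3 (log2 difference -2.43, SE 0.24, adjusted p = 1.03e-05), and one at 139823 bp rose from 195 ± 57.4 to 553 ± 182 (log2 difference 1.42, adjusted p = 0.0009). Within Gli3, an element at 23225 bp had a difference of -1.08 (adjusted p = 0.000969). An element in intron 2 of Gli2, assigned by distance to Mir6346 and found after the values were seen (chr1:118913611-118914355), went from 56.2 ± 30.7 (SD, n = 6) to 915 ± 317 (SD, n = 5), a difference of 3.78 (adjusted p = 1.51e-06). It had 204 ± 100.0 (SD, n = 6) in pMN.

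**Figure D2:**
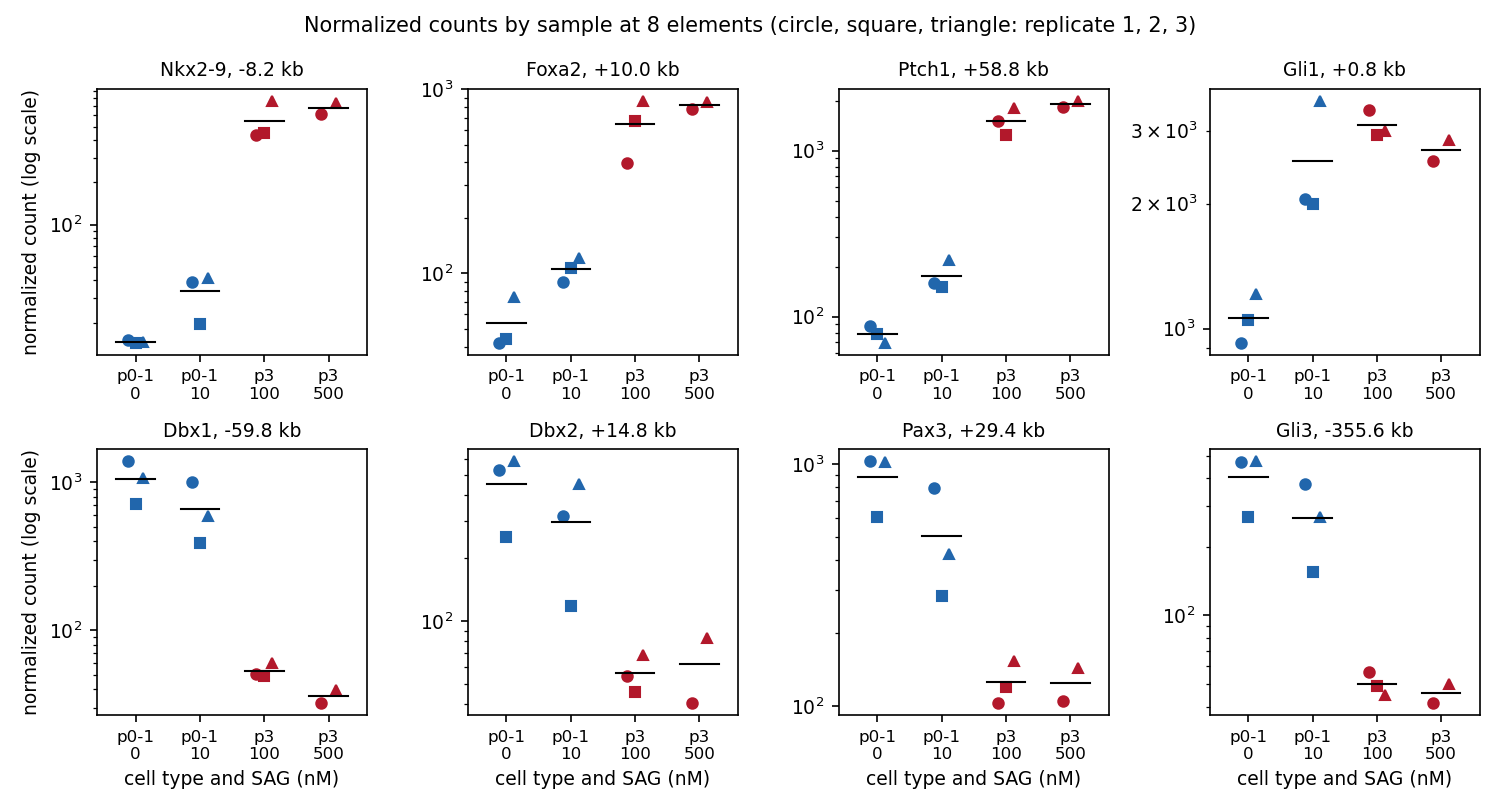
Normalized counts (log vertical axes) of each of the 11 samples at 8 elements, by cell type and SAG dose in nM, with circles, squares and triangles for replicates 1, 2 and 3 and black lines for the mean of each dose; panel titles give the nearest gene and the distance to its TSS. The upper row shows Nkx2-9, Foxa2 and Ptch1 with p3 samples above all p0-1 samples and Gli1 with overlap, and the lower row shows Dbx1, Dbx2, Pax3 and Gli3 with p3 samples below all p0-1 samples.

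Near genes of p0, p1 and more dorsal progenitors most elements past a difference of 1 were lower in p3. All 18 genes of that list had a tested element, and 3 of 88 elements were called, all lower in p3, where 1.08% of all tested elements were called and 0.425% lower. Past a difference of 1 there were 14 lower and 1 higher, 17.0% of the list against 6.00% of all elements (2.93% lower), and the list median was -0.24. The falls were at Dbx1, Dbx2, Irx3, Irx5, Pax3, Pax6, Pax7 and Prdm12, all transcription factor genes of intermediate or dorsal progenitors, and the rise was -53523 bp from Gsx1 (1.47). The summed normalized counts of the 88 elements were 44011 to 60269 in p0-1 and 33915 to 41989 in p3, without overlap.

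In intron 2 of Dbx2 (chr15:95639106-95640768) the p0-1 samples held 532, 252 and 582 at 0 nM and 319, 118 and 455 at 10 nM and the p3 samples 54.5, 45.5 and 68.4 at 100 nM and 40.5 and 83.2 at 500 nM (log2 difference -2.33, SE 0.33, adjusted p = 0.000213). In intron 4 of Pax3, a dorsal progenitor gene (chr1:78167221-78168294), they held 1023, 606 and 1013 at 0 nM and 797, 285 and 424 at 10 nM and 103, 119 and 154 at 100 nM and 105 and 143 at 500 nM (log2 difference -2.24, SE 0.29, adjusted p = 8.68e-05). In both, replicate 2 at 10 nM was nearest to p3 and the groups did not overlap. Both lost their call in limma voom, between the nearest doses and without the samples numbered 1, and Dbx2 also without the p3 samples at 100 nM. Irx3 had 4 elements past a difference of 1, from -1.88 at 7582 bp to -1.01 at -28362 bp, and Pax7 had 2, at -1.39 and -1.13.

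Nearest the starts of the dorsal genes the differences were smaller than at the called distal elements. At Dbx1 (chr7:49633350-49637413) the p0-1 samples held 1996, 1524 and 1861 at 0 nM and 1473, 916 and 1212 at 10 nM and the p3 samples 654, 664 and 759.9 at 100 nM and 603 and 664 at 500 nM, a difference of -1.10 (adjusted p = 0.000425) with no overlap. At Dbx2 (chr15:95652832-95655217) the means were 262 ± 51.3 (SD, n = 6) and 175 ± 39.2 (SD, n = 5), a difference of -0.56 (adjusted p = 0.0328). At Pax6 (chr2:105673776-105676787) they were 2993 ± 439 and 2197 ± 223, a difference of -0.44 (adjusted p = 0.0115). At Irx3 (chr8:91800312-91802292) they were 2584 ± 355 and 2478 ± 440.0, a difference of -0.07 (adjusted p = 0.885). These last 3 had samples of the groups overlapping and missed the threshold on p. Without p0-1 replicate 3 at 10 nM this Pax6 element passed it (difference -0.37, limma adjusted p = 0.00661). Dbx2 (adjusted p = 0.0422) and Irx3 (adjusted p = 0.961) did not. A second Pax6 element annotated as promoter-TSS (chr2:105680198-105683277) went from 1025 ± 258 to 469 ± 83.7 without overlap, a difference of -1.09 (adjusted p = 0.000387).

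The 5 genes of p2 and pMN or shared with p3 had 27 tested elements, none called, where 1.08% of all were. Past a difference of 1 there were 2 higher and 2 lower, 14.8% against 6.00% of all elements. At the Nkx6-1 promoter (chr5:101662711-101666976) the means were 1548 ± 358 in p0-1 and 2020.5 ± 129.8 in p3 (log2 difference 0.41, adjusted p = 0.0588), with p0-1 replicate 3 at 10 nM the highest of all 11 samples. Distal Nkx6-1 elements at 16279 and 341398 bp had differences of 1.41 (adjusted p = 0.000885) and 1.50 (adjusted p = 0.00139). In pMN these 2 elements had 321 ± 59.4 and 1200 ± 213 (SD, n = 6). Their differences (p3 minus pMN) were -0.48 and -0.71 (limma adjusted p = 0.0437 and 0.00652). In the Olig2 element nearest its start (chr16:91224754-91227830) the means were 626 ± 222 and 831 ± 87.7 (log2 difference 0.47, adjusted p = 0.163), with 1358 ± 104 (SD, n = 6) in pMN.

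The remaining lists gave 3 called elements, and at 1.08% called over all elements their counts of 0 or 1 are near that share. Among genes of all neural progenitors, 1 of 63 elements was called, in intron 2 of Sox5 (chr6:144151331-144152191), with 41.9 ± 15.0 in p0-1 and 259 ± 106 in p3 (log2 difference 2.27, adjusted p = 9.55e-05). Among 39 elements of retinoic acid genes, 1 was called, in intron 2 of the receptor gene Rarb (chr14:16562903-16563783), with 14.8 ± 5.08 and 225 ± 99.3 (log2 difference 3.09, adjusted p = 4.86e-06). Among 67 elements of axon guidance genes, 1 was called, -85843 bp from Sema3a (chr5:13312511-13314421), with 177 ± 113 and 28.2 ± 12.6 (log2 difference -2.06, adjusted p = 0.00277), and leaving out p0-1 replicate 1 or 3 at 0 nM, p0-1 replicate 1 at 10 nM or p3 replicate 1 at 100 nM ended that call. Against pMN (p3 minus pMN) the Sox5 element differed by 0.21 (limma adjusted p = 0.615), with 216 ± 73.7 (SD, n = 6) in pMN. The Rarb element differed by 1.37 (adjusted p = 0.00583) and the Sema3a element by -2.19 (adjusted p = 2.31e-06). A further element in intron 5 of the guidance gene Slit3, assigned to Mir218-2 and found after the values were seen, had a difference of 2.08 between p3 and p0-1. None was called among 49 elements of FGF, 51 of Notch and 61 of BMP and Wnt genes, where 10.2%, 7.84% and 8.20% passed at a difference of 1 against 6.00% of all elements. For other cell types, none was called among 20 elements of NMP, 43 of neuron, 25 of endoderm, 16 of neural crest and 14 of pluripotency genes. Past a difference of 1 the shares were 5%, 9.3%, 8%, 12.5% and 0%, against 6.00%. Their summed normalized counts overlapped between p0-1 and p3 in all 5, for example 18732 to 27068 against 16539 to 20047 for neurons.

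The called elements were distal. Of the 194 higher elements 54.1% were intergenic, 43.8% intronic and 1 was at a promoter-TSS, and of the 125 lower ones 43.2% were intergenic, 53.6% intronic and 0 at a promoter-TSS. Over all tested elements 23.8% were at a promoter-TSS, and of these 7001 only 1 was called, 0.0143%, against 1.42% of the 22419 others. Median distances to the nearest TSS were 62576 bp for the higher and 62561 bp for the lower elements, with 5809 bp over all. The called elements had fewer G and C bases, with medians of 45.6% and 47.9% against 53.5%, and were narrower, with medians of 997 and 1040 bp against 1396 bp.

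Exact motif matches on either strand were counted in the central 500 bases of each element. The FOX core was found in 25.3% of the 194 higher elements and in 6.40% of the 125 lower ones, against 5.91% of the tested elements outside promoter-TSS and 5.28% of all tested ones. In elements with 40% to 50% G and C the shares were 23.9%, 6.17% and 9.13%. The GLI motif TGGGTGGTC (reverse GACCACCCA) was in 6.19% of the higher elements, in 0 of the 125 lower ones, in 0.749% of those outside promoter-TSS and in 0.7% of all tested ones. SOX (CATTGTT) was in 16.5%, 10.4% and 9.26%, TEAD (ACATTCC) in 14.9%, 6.40% and 9.06%, and homeodomain (TAATTA) in 12.4%, 16% and 9.32%. NKX2 (CACTTNA) was in 24.7%, 25.6% and 19.3%, the retinoid half-site (AGGTCA) in 28.9%, 40% and 26%, CDX-HOX (TTTATNG) in 20.6%, 27.2% and 15.4%, and POU (the octamer ATTTGCAT) in 5.15%, 7.20% and 2.84%. E-box (CANCTG) was in 72.7%, 75.2% and 72.4%, RFX (GTTGCCA) in 5.67%, 8.80% and 6.71%, and PAX (TTCACGC) in 2.06%, 1.60% and 2.22%. No motif's letters contain those of another. Base composition differed between the sets, and matches do not show binding.

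**Figure D3:**
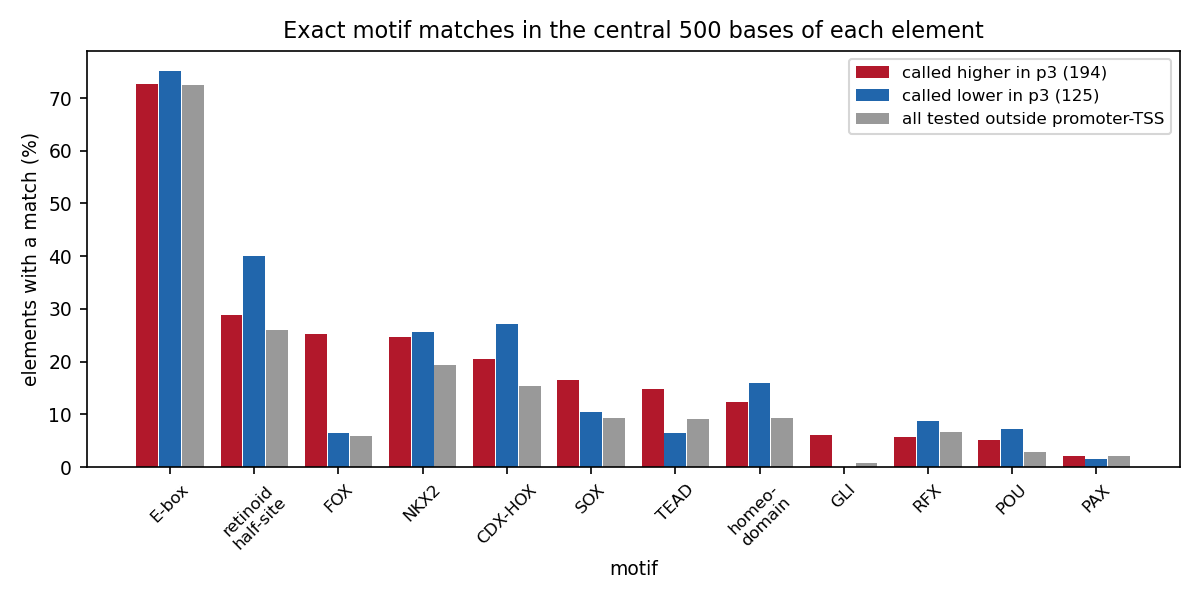
Share of elements (vertical axis, %) with at least 1 exact match to each motif in the central 500 bases, for the 194 elements higher in p3 (red), the 125 lower in p3 (blue) and the 22419 tested elements outside promoter-TSS (grey). FOX stood at 25.3%, 6.40% and 5.91% and GLI at 6.19%, 0 and 0.749%.

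The GLI match nearest the midpoint is shown for the 5 largest rises that hold one, in capitals with 16 bases on each side, since this motif is rare among all elements. The upstream Nkx2-9 element is among them, and the Hs3st3b1 element shown is not the one that fell.
Nkx2-9, chr12:56621366-56621406: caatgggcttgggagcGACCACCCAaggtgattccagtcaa
Fbxl7, chr15:26804334-26804374: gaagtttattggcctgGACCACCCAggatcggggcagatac
Hs3st3b1, chr11:63936719-63936759: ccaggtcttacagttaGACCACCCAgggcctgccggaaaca
1700024I08Rik, chr13:63719721-63719761: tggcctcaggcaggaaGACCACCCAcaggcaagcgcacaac
Gm815, chr19:26930698-26930738: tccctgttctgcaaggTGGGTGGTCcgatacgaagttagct

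FOX matches of 4 of the largest rises are shown in the same way, next to that of the Kcnq1 intron element above. The 1700024I08Rik entry lies in the run of rises beyond Ptch1, in another element of that run than the GLI match.
Cobl, chr11:12529192-12529230: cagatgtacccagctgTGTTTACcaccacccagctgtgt
Spaca7, chr8:12609948-12609986: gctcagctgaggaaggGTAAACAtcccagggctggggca
Mir6344, chr1:81908759-81908797: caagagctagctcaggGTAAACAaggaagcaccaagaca
1700024I08Rik, chr13:63730061-63730099: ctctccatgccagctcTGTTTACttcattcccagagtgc

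Among the higher elements the median difference was 2.71 in the 49 with a FOX match and 2.42 in the 145 without, and 2.37 in the 12 with a GLI match and 2.5 in the 182 without. Only 1 element held both. These medians describe elements already chosen for their difference and were not tested.

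Within each cell type the SAG doses were compared. These contrasts do not cover the step from 10 to 100 nM that separates the groups, so they do not show how much of the difference between p3 and p0-1 a dose could give. For p0-1 at 10 nM against 0 nM, limma called 0 of 29373 elements (0.00%), with 834 (2.84%) at an unadjusted p under 0.05, 62 of them (0.211%) higher at 10 nM. For p3 at 500 nM against 100 nM it called 0 of 29283 (0.00%), with 1066 (3.64%) at an unadjusted p under 0.05, 549 of them (1.87%) higher at 500 nM. Within p0-1 the same-numbered samples deviated together, and with the number as a block 0 passed a difference of 2 but 331 (1.13%) passed 1, 3 of them (0.0102%) higher and 328 (1.12%) lower at 10 nM. Gli1 rose from 0 to 10 nM by 1.2 (adjusted p = 5.38e-08 with the block) and the largest Ptch1 element by 1.04 (adjusted p = 8.07e-05). Without the block neither passed (adjusted p = 0.713 for each). Between p3 doses these elements differed by -0.20 and 0.34, adjusted p = 0.712 for both. With the same block in p3, 1 element passed 2 and 33 (0.113%) passed 1, all higher at 500 nM. Taking p0-1 at 10 nM against p3 at 100 nM, the nearest doses, left 114 calls, 89 higher and 25 lower, and p0-1 at 0 nM against p3 at 500 nM gave 528, 286 higher and 242 lower. The 114 calls come from the samples that include p0-1 replicates 2 and 3 at 10 nM and p3 replicates 1 and 2 at 100 nM, described above.

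The other day 4 cell types lay between p0-1 and p3 at most higher elements. The elements were chosen for a wide gap between p0-1 and p3 at day 4, which favours values of other types between them. The order was not counted over all tested elements, so its counts are a description. The median VST value of the 194 higher elements was 5.57 in p0-1, 6.43 in p2, 6.97 in pMN and 8.14 in p3, and the means rose in this order at 161 of the 194. At the doses shared with p3 the pMN medians were 6.86 at 100 nM and 7.08 at 500 nM, against 7.88 and 8.59 in p3. The 125 lower elements had medians of 8.20 in p0-1, 8.29 in p2, 7.88 in pMN and 5.94 in p3. The means fell in this order at 51 of the 125. At 115 of these lower elements pMN was nearer to p0-1 than to p3, as it was at 85 of the 194 higher ones. Of the named falls, the pMN samples had 296 ± 74.0 (SD, n = 6) at the Dbx2 intron, 958 ± 273 (SD, n = 6) at Lhfpl2 and 222 ± 25.5 (SD, n = 6) at the Dbx1 element.

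At day 3 both sets had low counts. In NMPs the median VST value was 4.60 at the higher and 4.45 at the lower elements, where an element without reads has 2.7. The NMP mean was below both cell types at 162 of the 194 higher and 114 of the 125 lower elements, and under 20 normalized counts at 127 and 86. It was nearer to p0-1 at 188 of the higher elements and nearer to p3 at 121 of the lower ones. Where the NMP mean lay below both cell types, the nearer type was the lower one by construction. These counts therefore do not show a likeness of NMPs to either type. The elements nearest the starts had more, with 1494 ± 212 (SD, n = 3) at Foxa2 and 841 ± 113 (SD, n = 3) at Dbx1 in NMPs.

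**Figure D4:**
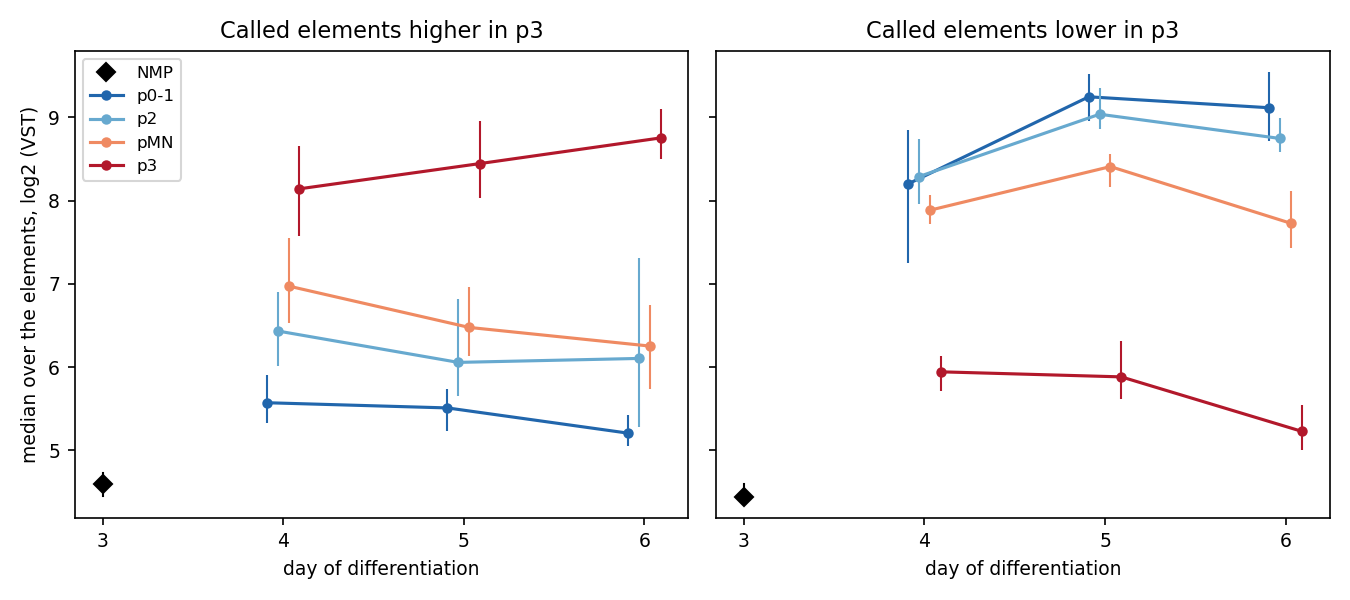
Median VST value (log2, vertical axis) of the 194 elements called higher (left) and the 125 called lower (right) in p3 at day 4, by day of differentiation (horizontal axis) and cell type, pooled over SAG doses, with vertical lines from the lowest to the highest sample median. The day 4 values of p0-1 and p3 are those that chose the elements, and the medians on day 6 were 5.21 against 8.75 on the left and 9.12 against 5.23 on the right.

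Separate samples from days 5 and 6 showed the same direction at nearly all called elements. At day 5 (6 p0-1 and 5 p3 samples) all 194 higher and all 125 lower elements kept their sign, with median differences of 2.77 and -3.17. Of the higher elements 150 passed the filter on the mean at day 5 and 135 were called higher. Of the lower elements 116 passed and 111 were called lower, where 6.40% of all tested elements were called in either direction. At day 6 (5 and 4 samples) 194 and 124 kept it, with medians of 3.21 and -3.47. Of the 194 higher elements 144 passed the filter on the mean at day 6 and 126 were called higher, and of the 125 lower elements 106 passed and 100 were called lower, where 11.4% of all 32580 elements were called, 5.61% higher and 5.81% lower. None of the 250 was called in the opposite direction.

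**Figure D5:**
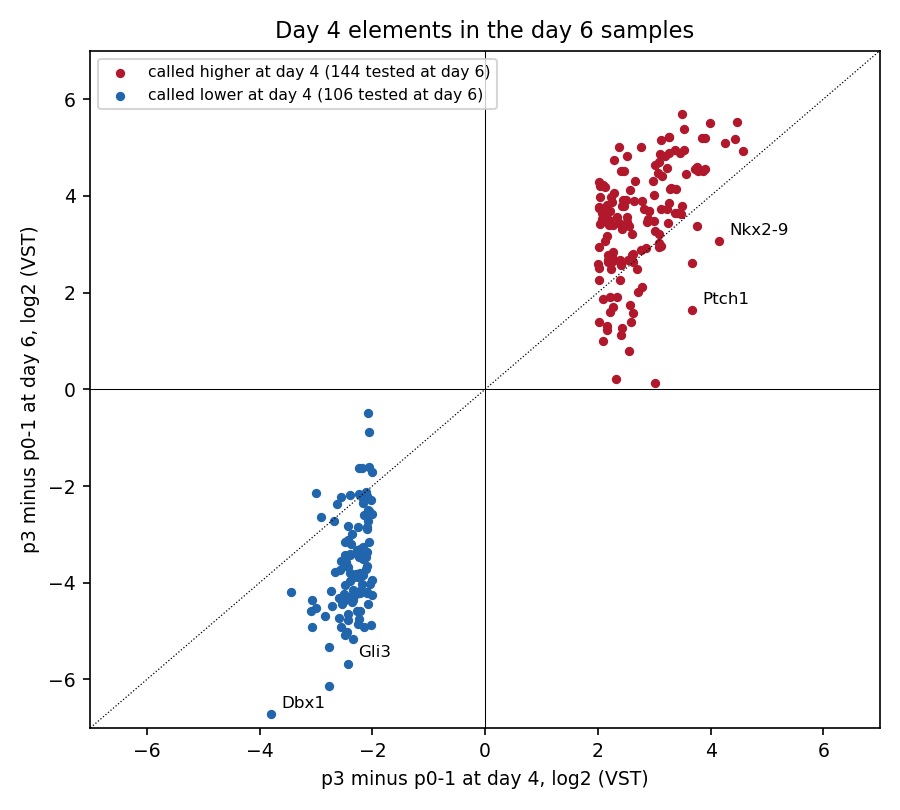
Difference between p3 and p0-1 at day 6 (vertical axis) against that at day 4 (horizontal axis), both log2 on the VST scale, for the 250 called day 4 elements that passed the filter on the mean at day 6; red and blue mark those higher and lower in p3 at day 4 and the dotted line marks equal values. All 144 red points lie above 0 and all 106 blue points below 0, with Ptch1 and Nkx2-9 under the line among the red points.

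The change of the difference from day 4 to day 6 was tested as an interaction, which called 1052 of 30970 elements (3.40%), 439 (1.42%) more positive and 613 (1.98%) more negative at day 6. Of 173 higher elements tested in it the difference was wider at day 6 at 12 and narrower at 5, and of 120 lower ones it was wider at 22 and narrower at 1. These elements were chosen on their day 4 values, so these counts are a description. Dbx1 at -59780 bp reached 2152 ± 272 (SD, n = 5) in p0-1 and 10.8 ± 7.93 (SD, n = 4) in p3 at day 6, a change of -2.92 (adjusted p = 1.68e-05). The Ferd3l promoter reached 722 ± 185 (SD, n = 4) in p3, a change of 2.27 (adjusted p = 3.49e-05). The Ptch1 element at 58841 bp went the other way, to 180.2 ± 47.9 (SD, n = 5) in p0-1 and 579 ± 79.7 (SD, n = 4) in p3, and Gli1 at day 6 had 2238 ± 796 (SD, n = 5) and 1777 ± 310.5 (SD, n = 4). The Gli1 change of -1.12 missed the threshold (adjusted p = 0.0647). The Foxa2 promoter widened by 1.61 (adjusted p = 0.000717), to 261 ± 29.3 (SD, n = 5) in p0-1 and 1662 ± 486 (SD, n = 4) in p3.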

How the data were processed

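ATAC-seq after fixation, transposition and sorting on intracellular transcription factors (CaTS-ATAC) was used as the authors deposited it. The authors processed reads against mm10, called peaks with MACS, counted reads in consensus peaks and deposited log2 values from the variance-stabilizing transformation in DESeq2, for 111638 elements. A deposited annotation of 133549 elements gave coordinates, nearest TSS and class. The transformation was inverted, the recovered reads being whole numbers (within 0.001) in 100% of values below 1000 reads in each sample. Being non-counts as deposited, the values were tested with limma 3.58.1 in R 4.3.3 (variance trend, two-sided, Benjamini-Hochberg over all tested elements) wherever the samples of a comparison averaged over 100 normalized counts. Calls needed both an adjusted p under 0.01 and a log2 difference above 2 or below -2. The method was tested on simulated data, where 100% of 200 elements changed 8-fold among 29420 passed both thresholds and 0 unchanged ones did. Of 200 elements changed 2.5-fold, 100% passed on adjusted p, with 5 false calls, and 0 passed both thresholds. The simulation gave all elements the same spread and made the samples independent, unlike these data. It therefore does not give the error rate of the calls made here. Depth ranged from 9298160 to 23973955 reads in elements per sample, and intervals from it would cover counting error only.

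Named elements were the 8 largest rises and falls without overlap of the groups (1 per gene), the largest called element of each gene of the hedgehog, p3 and floor plate, p0-p1 and dorsal and shared ventral lists, the tested element nearest the start of 11 genes, and the 2 largest called elements of each other list, 35 in all. Members, lists and motifs were chosen with earlier results of these data known. Further elements are named as chosen after their values were seen. The p3 sample labelled replicate 3 at 500 nM carries replicate 2 in its description, and titles were used. Same-numbered samples of p0-1 at 0 and 10 nM correlated in their deviations (lowest r of 3 pairs 0.423), and those of p3 at 100 and 500 nM gave 0.106 as the lower of 2. Over all same-numbered pairs between conditions of both cell types the median was 0.423 and the lowest -0.468. Pairs with different numbers had a median of -0.150. The main comparison used no block and so treated samples sharing a number as independent, and the fits with the block are given below. Sequences were read from GRCm38.p6. Alternatives covered the replicate block, dose pairs, centring, voom, the filter, the threshold and leaving out each sample. Some listed genes are counted but not reported by name, and 1 sequence is not reported here. Regulatory targets, expression and the series' other comparisons were not analysed here.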

Additional observations from a re-analysis of the deposited data

Results flagged for a closer look

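At 4 of the 35 named elements the difference between p3 and p0-1 changed from day 4 to day 6 past both thresholds of the interaction test in limma. Over all 30970 elements tested in it, 3.40% did so. Of the 35, 25 were called at day 4, and the day 4 values also enter this test, so the count of 4 is a description. The change was -2.92 at the Dbx1 element (-59780 bp, adjusted p = 1.68e-05) and -3.24 at the Gli3 element (-355573 bp, adjusted p = 3.29e-06), so that both were further below p0-1 at day 6. Gli3 had 885 ± 184 (SD, n = 5) normalized counts in p0-1 and 7.8 ± 5.79 (SD, n = 4) in p3 at day 6. The change was 2.27 at the Ferd3l promoter (-243 bp, adjusted p = 3.49e-05), where p0-1 had 26.8 ± 12.8 (SD, n = 5) at day 6. At the Ptch1 element (58841 bp) it was -2.03 (adjusted p = 0.000225), a narrowing. No sample of either group stood far enough from its group at any of the 35 named elements to be listed, over 70 groups examined, where chance alone would list about 1 in 20. Many of these elements were chosen for groups without overlap, which favours a small spread, and groups this small give little power. The samples described above as often at the edge of their group are therefore not cleared by it.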

How the results depend on the processing

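The 319 calls between p0-1 and p3 became 114 for p0-1 at 10 nM against p3 at 100 nM and 528 for 0 nM against 500 nM. Both dose pairs used fewer samples than the main fit, yet their counts moved in opposite directions, and the reason was not tested. There were 837 calls without the filter on the mean, which tested more elements. At a log2 difference above 1 or below -1, a lower threshold, there were 1764. Leaving out single replicates gave 294 to 385 calls, with 101 to 191 lower in p3. Left out by number, after seeing the data, all samples numbered 1 gave 259 higher and 57 lower, those numbered 2 gave 201 and 209, and those numbered 3 gave 134 and 141, and without the p3 samples at 100 nM there were 291 and 94. The replicate block by title numbers gave 335 calls (182 higher, 153 lower, 306 shared with the 319), with a GC correction 336 (176 and 160), and by description numbers 315. In deviations from condition means 9 of 11 samples were nearest to their own number. The voom fit, whose 348 calls shared 236 with the 319, was 82.5% higher against 60.8%, and the cause was not tested. Centring gave 326 calls.

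The 0 calls for SAG within p0-1 and within p3 were 0 in every fit leaving out 1 replicate, with 82 to 5437 and 182 to 3672 elements at an unadjusted p under 0.05. In p0-1 the replicate block with a threshold of 1, added after seeing the data, gave 331. In p3 the block gave 1, and 33 at a threshold of 1, all higher at 500 nM. The 1052 calls for the change from day 4 to day 6 were 949 with the replicate block, 2995 at a threshold of 1, 3624 without the filter and 868 to 1188 without single replicates. Over the whole element the FOX share was 36.6% of higher elements (25.3% in the central 500 bases) and 17.9% of those outside promoter-TSS (5.91%), and the GLI share of the latter was 2.02% (0.749%). Of 1015 values of the 35 named elements under 29 alternatives, 974 kept direction and side of the thresholds, 35 lost and 4 gained the call, and 2 changed sign, Irx3 at 352 bp, to 0.0101 with the block and GC correction and 0.0303 without samples numbered 3. Of the 25 named called elements, 12 kept their call under all 29. Depth limits elements near the filter, where the p3 samples at 100 nM are shallowest.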
